A study of Homo sapiens with 7 samples.

Results

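The regions described here are 1103 stretches of intergenic chromatin that gained accessibility when PHF19 was silenced, each within 100 kb of a transcription start site (TSS). They were taken from 8815 regions that the authors listed as changed, and were selected on the authors' group means. A region was kept where the knockdown mean was above the control mean, where the deposited annotation was distal intergenic, where the nearest TSS was at most 100 kb away and where the chromosome was not 7. Of 2306 gained intergenic regions, 1282 lay within 100 kb, and 179 of those were on chromosome 7. All 1103 came from the authors' list of increased regions, none overlapped the body of its nearest gene, and together they had 935 nearest genes. Because direction chose them, their folds are given as a description with no test.

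ATAC-seq, which marks open chromatin by transposase insertion, was run on 3 libraries of Kasumi-1 cells carrying a lentiviral PHF19 shRNA and on 4 libraries with a scrambled shRNA. Kasumi-1 is an acute myeloid leukaemia line with the RUNX1-RUNX1T1 fusion gene, and both groups carry it. Both groups received the shRNA in the GV493 vector, which also carries GFP and puromycin resistance, and both spent at least 24 hours in 2 µg/ml puromycin from 48 hours on, with 10000 cells taken per library. The labels do not say whether libraries of a group are separate cultures, how many shRNA sequences were used or how far PHF19 fell. The FDR values below therefore judge the group difference only against the spread between these libraries. No transcript was used here to check the knockdown or the cell type.

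PHF19 is a Polycomb-like protein that helps recruit Polycomb repressive complex 2 (PRC2), which methylates lysine 27 of histone H3 and keeps chromatin closed. Intergenic sites near genes are often enhancers, which bind transcription factors and act on a promoter at a distance. The nearest gene of such a site is a positional label and need not be the gene it acts on.

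The authors' deposited table gives, for each region, the mean normalised read count of each group on a log2 scale, a log2 fold of knockdown over control and a false discovery rate (FDR). These are the authors' own values and carry no SD or n, and no value per library was used. The p-values and FDRs imply 52675 tested regions, of which 8615 were called gained, or 16.4%. That share is the background for every gained region, and since the same contrast chose the 1103 nothing is read from it. Every listed region had an FDR under 0.05, and how many of the tested regions were intergenic was not known. Coordinates are as deposited and are read as hg19, 1-based.

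MicroRNA genes were the nearest gene of 42 of the regions, or 3.81%, against 2.30% of all gained regions off chromosome 7 and 3.16% of gained intergenic regions beyond 100 kb. They were 37 of 1831 microRNA genes off chromosome 7 (2.02%), and their products show which regulators these regions lie beside. MicroRNAs silence messenger RNAs that pair with the seed, bases 2 to 8. RefSeq (GRCh38.p14) gave 41 mature sequences for 32 of the genes, with 39 different seeds, of which 2 were shared between genes. The shared ones link let-7a, a family that restrains growth-promoting genes, to miR-4458, and miR-181b, a microRNA of lymphoid and myeloid development, to miR-4262. They are shown with miR-223, the granulocyte microRNA, miR-26b and miR-106a, which were chosen after their values were seen as blood-expressed or growth-related microRNAs. Capitals mark the seed, and letters run 5′ to 3′.
let-7a-5p: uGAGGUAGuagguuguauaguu
miR-4458: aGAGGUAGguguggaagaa
miR-181b-5p: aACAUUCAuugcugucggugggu
miR-4262: gACAUUCAgacuaccug
miR-223-3p: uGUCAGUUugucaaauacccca
miR-26b-5p: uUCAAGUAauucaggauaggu
miR-106a-5p: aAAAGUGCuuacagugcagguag

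The region beside MIR223 lay 91.9 kb upstream (chromosome X, 65146048 to 65146834) and had 28.5 reads in the knockdown mean of the authors' deposited table and 14.8 in the control mean (log2 fold 0.75, FDR 0.0392). The one beside MIRLET7A1, a gene for let-7a, lay 8.98 kb upstream with means of 64.2 and 36.8 reads (0.72, FDR 0.0116), and MIR4458, whose product has the same seed, had a region 32.3 kb downstream with 15.8 and 4.75 reads (1.18). MIR181B1 had 24.7 and 10.8 reads at a site 81.9 kb downstream (0.90). Its seed partner MIR4262 had a pair of regions, 67.1 and 70.3 kb upstream, with folds of 0.89 and 0.96. The control means of these regions ran from 4.11 to 36.8 reads.

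MIR26B had a region 3.66 kb downstream, close to the TSS, with 42.5 and 24.2 reads in the authors' deposited table (log2 fold 0.69). MIR106A, of the growth-promoting miR-17 family, had 9.18 and 2.58 reads at a site 16.5 kb upstream (0.97). Across the 42 regions folds ran from 0.63 to 1.42 with a median of 0.98, close to that of all 1103, and 21 lay upstream. Host genes of other microRNAs also had regions, MIR155HG 59.9 kb upstream (1.07), MIR23AHG 5.65 kb upstream (1.07) and MIR99AHG 32.7 kb upstream (0.92). Each of these 3, picked after their values were seen, had a gained promoter region too. None of the microRNA genes nearest to the 42 regions had one, and over all 1103 regions the nearest gene had one for 30.6%. For 3 of the microRNA genes, MIR4454, MIR548AN and MIR5695, the current RefSeq locus is on another chromosome than the region, so the label of those 4 regions is uncertain.

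Over all 1103 regions the authors' mean was 17.7 reads in the knockdown at the median (quartiles 12.3 and 26.6) and 5.99 in the control (3.52 and 10.8). The median log2 fold was 1.0, with quartiles of 0.90 and 1.14 and a range of 0.59 to 2.21, and 549 regions (49.8%) had a fold of at least 2. The deposited fold was smaller at the median than the plain difference of the group means, which was 1.52, and how the authors derived it is not given in the sources used. FDRs of 0.01 or less belonged to 389 regions (35.3%). In 15 regions the control mean was at its floor of 1 read, and 487 regions (44.2%) had a mean under 10 reads over all libraries.

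**Figure D1:**
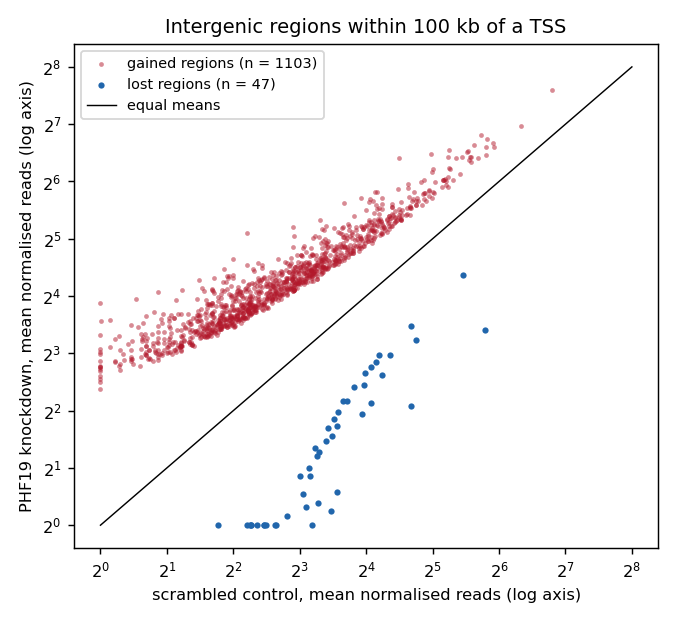
Authors' mean normalised reads of each intergenic region within 100 kb of a TSS in the control (horizontal) and in the knockdown (vertical), both on log axes, chromosome 7 left out. Points are 1103 gained and 47 lost regions, the line marks equal means, and the gap around it is where the authors' selection removed regions.

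The sites had lower read counts than gained promoters and counts similar to other distal sites. Gained promoter regions off chromosome 7 (3850) had knockdown and control medians of 47.9 and 23.1 reads, with a lower median fold of 0.88. Gained intronic regions (1510) had 16.1 and 5.36 reads and a median of 1.02, and the 917 gained intergenic regions beyond 100 kb had 16.4 and 4.93 reads and a median of 1.05. All 7573 gained regions off chromosome 7 had a median of 0.96. The order of the medians is a description of selected regions, and no test of it was made. The 47 lost intergenic regions of the same distance range had medians of 2.54 reads after knockdown and 10.8 without it.

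Fold and level moved in opposite directions within the 1103. In the 276 regions with the fewest reads (median 5.90 over all libraries) the median log2 fold was 1.04 and the smallest 0.86, and in the 276 with the most (26.4 reads) they were 0.87 and 0.59. The smallest listed fold was thus larger where reads were few, and FDRs of 0.01 or less were found for 18.5% of the first set and 50.0% of the second. The width was 401 bp in 1036 regions and more in 67.

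The largest fold belonged to AACS, the gene of a synthetase that activates ketone bodies, at a site 15.5 kb upstream (chromosome 12, 125534045 to 125534445). The authors' deposited table gives it 34.4 reads under knockdown and 4.60 without (log2 fold 2.21, FDR 2.99e-07). A region 50.0 kb downstream of DYRK2, a kinase that phosphorylates p53 (chromosome 12, 68092496 to 68093127), had 24.98 and 3.98 reads (1.96, FDR 7.27e-06). HIPK3, a homeodomain-interacting kinase, had 16.9 and 1.83 reads 45.1 kb upstream (1.87). In each of these 3 the control held under 5 reads.

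Other large increases in the authors' deposited table lay beside genes of several kinds. TMC1, an ion channel gene of hair cells, had 14.7 reads against a control at the floor (1.85), and UTP25, a gene of ribosome assembly, had 19.4 and 2.78 (1.83). FNDC3B, an endoplasmic reticulum membrane protein, had the most reads of the 12 in the knockdown, 36.8 against 7.44, at a site 63.8 kb upstream (1.80, FDR 2.85e-06). PENK, the enkephalin precursor gene, reached 1.83, KBTBD8, an adaptor of a ubiquitin ligase, 1.78, and STRIT1, a small muscle membrane protein gene, 1.78. SLITRK1, a synaptic adhesion gene (1.72), MRAP2, an accessory protein of melanocortin receptors (1.72), and LRRC3B (1.69) completed the 12 largest at named protein-coding genes. Of the 12 genes, HIPK3, UTP25, FNDC3B and KBTBD8 also had a gained promoter region, a share near the 33.8% of all protein-coding nearest genes. KRTAP19-1 (1.89), of a multicopy family, was left out of that ranking, and 45 regions had a multicopy or unnamed nearest gene, where the locus of the reads is uncertain.

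Regions were ranked by mean reads only where the nearest gene was a named protein-coding gene. The most accessible of these lay 91.5 kb downstream of the nearest annotated TSS of KIT (chromosome 4, 55685120 to 55685520). KIT is the stem cell factor receptor that is often mutated in this leukaemia. In a gene with several annotated TSSs this distance need not be from the first. The knockdown mean was 194.0 reads and the control mean 110.7, a log2 fold of 0.74 with an FDR of 0.000961. BASP1 had the largest fold of the 5 regions with most reads in this ranking, 1.01 (FDR 4.24e-05), close to the median of all 1103. It had 112.6 against 52.8 reads at 97.8 kb upstream. TNRC6C, a partner of Argonaute proteins in silencing by microRNAs, had 125.9 and 80.7 reads and the smallest fold of all (0.59). ANKDD1A (0.69) and MORN3 (0.60) were also high, with 60.3 and 61.0 reads in the control. At the other end of the ranking ZWINT, a kinetochore gene, SPON1 and HAPLN1 had 5.19, 5.85 and 6.06 reads in the knockdown and controls at the floor.

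Values at the limits of the rule were close on either side. The regions nearest to a TSS belonged to IRF2BP2 (3.06 kb, log2 fold 0.75), RASSF5 (3.14 kb, 0.81) and KCNN1 (3.16 kb, 0.73), just beyond the 3 kb that the annotation calls promoter. The farthest belonged to JADE1 (99.9 kb, 1.15), IRAK1BP1 (98.6 kb, 0.98) and CD44 (98.3 kb, 1.21). Just outside the limit were regions of NMUR2 (100.1 kb, 1.13) and NEUROD1 (100.4 kb, 1.21). The smallest folds after TNRC6C were those of IER2 (0.59, FDR 0.0461) and MORN3.

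The median distance to the nearest TSS was 31.0 kb, with quartiles of 13.6 and 55.1 kb. Between 3 and 5 kb lay 63 regions, between 5 and 10 kb 135, between 10 and 20 kb 190, between 20 and 50 kb 393 and between 50 and 100 kb 322. The median fold hardly varied among these classes, from 0.96 in the nearest to 1.01 in the farthest, while the median control mean was 7.36 and 7.69 reads in the nearest classes and 5.39 in the farthest.

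Upstream of the TSS lay 739 regions, 67.0% (95% Clopper-Pearson interval 64.1 to 69.8%, counting error only, since neighbours are not independent). The share was 77.0% between 5 and 10 kb and 60.6% between 50 and 100 kb. A downstream region of this class lies past the whole gene by definition, and what this adds to the upstream share was not tested. The lost intergenic regions of the same range gave 31 of 47 (66.0%, interval 50.7 to 79.1%), and gained intergenic regions beyond 100 kb gave 48.9%. The median fold was 0.99 upstream and 1.01 downstream.

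**Figure D2:**
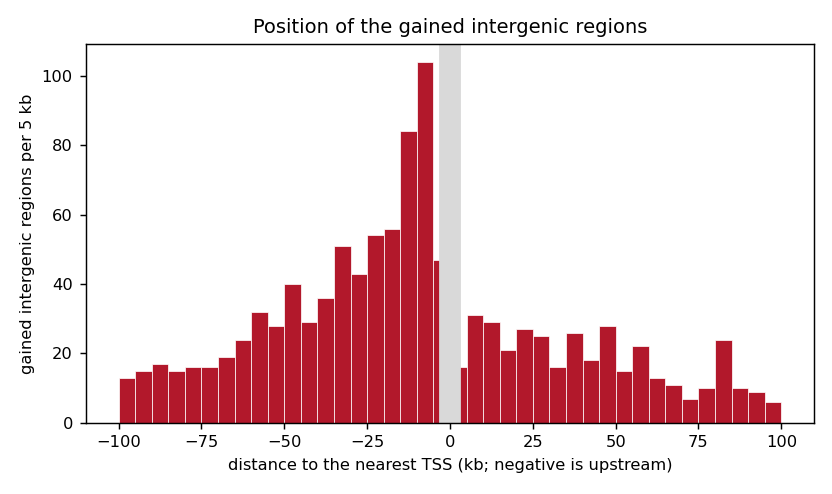
Number of gained intergenic regions per 5 kb of distance to the nearest TSS, negative values upstream, with the promoter zone of 3 kb on either side in grey. Upstream regions (739) outnumber downstream ones (364), most of all within 20 kb of the TSS.

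Single genes rarely held more than 1 region. Of the 935 nearest genes, 797 had 1, 114 had 2, 18 had 3 and 6 had 4. The 6 were CD200, HS3ST1, KBTBD8, PAG1, SATB1 and SH2D4B. At least 3 regions belonged to 24 genes, 22 of them protein coding, and 13 of the 24 also had a gained promoter region. Among all 781 protein-coding nearest genes, 264 (33.8%) had one, and the difference was not tested. Another region of the set lay within 25 kb of 213 regions (19.3%, interval 17.0 to 21.8%), against 11.7% of the gained intergenic regions beyond 100 kb and 19.0% of the gained intronic ones, and below the 31.4% of gained promoter regions and 31.5% of all gained regions, each counted within its own set. Of the regions, 41 lay within 1 kb of another, the closest pair 8 bp apart, so some neighbours may be parts of 1 site.

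CD200, a surface glycoprotein that dampens myeloid cells and marks leukaemic stem cells in some patients, had 4 regions in 16.9 kb past its end (chromosome 3, 112097838 to 112114716). Knockdown means in the authors' deposited table were 17.0, 23.8, 11.4 and 32.2 reads, and control means 5.87, 5.197, 2.55 and 9.16. All 4 had folds above 1, from 1.09 to 1.62, above the 0.90 of the CD200 promoter region, which had 18.8 and 8.02 reads.

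SATB1, a chromatin organiser of lymphoid and progenitor cells, had 4 regions with folds of 0.93 to 1.16. They lay from 73.3 kb upstream to 89.7 kb downstream, each counted from its nearest TSS, which was not the same on both sides. The strongest, 6.26 kb upstream (chromosome 3, 18486520 to 18487313), had 62.3 and 24.9 reads (FDR 6.98e-05), and its neighbour on the TSS side had 21.3 and 8.67. SATB1 had 9 gained regions in all, with 1 at a promoter (0.85) and 3 in introns. HS3ST1, a heparan sulfate sulfotransferase gene, had 10, of which 4 lay 10.9 to 68.6 kb upstream (0.93 to 1.23) and 6 beyond 100 kb, with none at a promoter.

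KBTBD8 had regions at 92.8, 25.7 and 6.36 kb upstream and at 85.0 kb downstream, the last of them with 17.3 reads against 2.33 (1.78). PAG1, a membrane adaptor that restrains Src family kinases, had 4 in a stretch of 24.0 kb, 18.4 to 42.0 kb upstream of its TSS (0.95 to 1.15), and a pair in introns. SH2D4B had 3 within 3.91 kb upstream (0.70 to 1.08) and 1 downstream of another of its TSSs (1.17). FNDC3B, with 3 regions 54.4 to 63.8 kb upstream (1.80, 1.0 and 0.98), had gained promoter regions with folds of 0.82, 0.74 and 1.33. The promoter region with 1.33 lay at another TSS, further into the gene, and had 14.8 and 3.45 reads. SUB1, a transcriptional coactivator, had 3 regions 42.5 to 62.4 kb upstream, the lowest of them in the control (2.73 reads) with the largest fold (1.53), and a promoter region with 89.2 and 52.9 reads (0.68). The 6 genes with 4 regions differed in layout, from a tight group beyond the gene end at CD200 to sites on both sides at SATB1, KBTBD8 and SH2D4B.

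**Figure D3:**
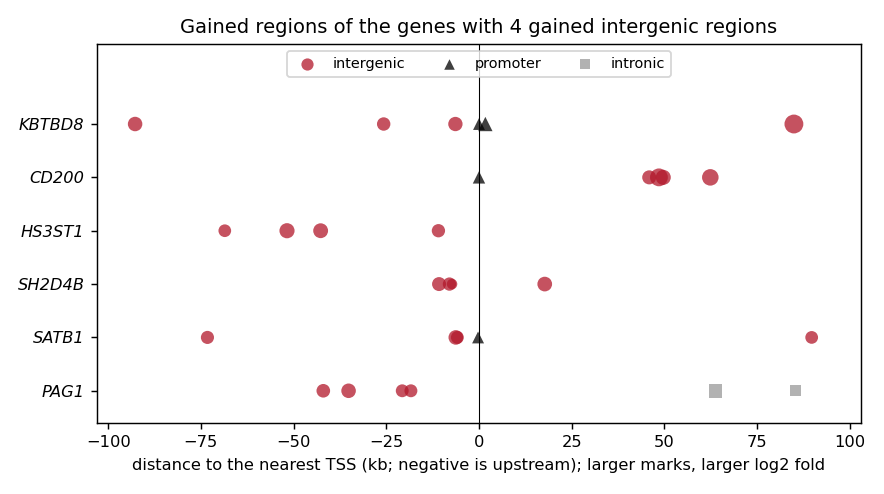
Gained regions within 100 kb of the TSS of the 6 genes that have 4 gained intergenic regions each, by distance in kb (negative is upstream), with circles for intergenic, triangles for promoter and squares for intronic regions and larger marks for larger log2 folds. The CD200 regions lie 45.9 to 62.4 kb downstream, and those of HS3ST1 10.9 to 68.6 kb upstream.

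Of the 18 genes with 3 regions, 6 chosen after their values were seen are described here. PMAIP1, which encodes the pro-apoptotic protein NOXA, had folds of 0.97 to 1.07, IRS2, an adaptor of the insulin receptor, 0.93 to 1.30, and PHLDA1, a growth factor-induced gene, 0.99 to 1.26. PNRC1, a nuclear receptor coactivator, ranged from 1.04 to 1.31 and AKIRIN2, needed for nuclear import of proteasomes, from 0.94 to 1.29. Each of these 5 also had a gained promoter region. That is more than the pick can speak for, since 13 of all 24 genes with at least 3 regions had one. Among the 781 protein-coding nearest genes the share was 33.8%. KLF9, a glucocorticoid-responsive Krüppel-like factor, had 3 regions within 2.27 kb (0.65 to 0.92) and no gained promoter. Runs of at least 3 regions with gaps of at most 25 kb numbered 12, and the longest spanned 46.0 kb beside CHASERR and the pseudogene ASB9P1 on chromosome 15.

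A gained promoter region accompanied 337 of the 1103, that is, the nearest gene of 30.6% had 1 (interval 27.8 to 33.4%). Among regions whose nearest gene is protein coding the count was 327 of 926 (35.3%), against 32.4% for gained intronic regions and 31.5% for gained intergenic regions beyond 100 kb. Of all 19118 protein-coding genes off chromosome 7, 16.6% had a gained promoter region. Counted by gene, 264 of the 781 protein-coding nearest genes (33.8%) had one, against 15.8% of the 18337 others. These are counts in the same contrast, with no test, and genes without any accessible site are among the others. For the 47 lost intergenic regions the count was 3 (6.38%, interval 1.34 to 17.5%). The share was lowest in the nearest class, 17.5% between 3 and 5 kb, and lay between 29.0 and 34.1% in the others.

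In the 273 genes with both kinds of region, the promoter had the higher knockdown mean in 246 (90.1%) but the intergenic region had the larger fold in 174 (63.7%). The median of the largest fold per gene was 1.02 at the intergenic region and 0.94 at the promoter. Regions with a gained promoter had a median fold of 1.01 and those without 0.99, with 18.9 and 17.3 reads in the knockdown. 

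Promoter sequences of RefSeq (GRCh38.p14, 250 bases before to 50 after the start) were available for 642 of the 781 protein-coding nearest genes. PHF19 and its relatives bind DNA rich in unmethylated CpG, the dinucleotide that concentrates in CpG islands. The median number of CpG per window was 22 for these genes and 22 over all 15044 promoters off chromosome 7. It was 28 for nearest genes with a gained promoter (223) and 18 for those without (419), and 28 for 2477 genes with a gained promoter and no gained intergenic region. The count was thus higher at promoters that gained, with or without an intergenic region, and these numbers are a description. A promoter can be called gained only where a region was tested, and which of the other promoters had one was not known. What this adds to the difference in CpG was not tested. The windows of CD200 and FNDC3B, genes with gained sites at both positions, are shown as examples with lower counts, 15 and 16, and capitals mark each CpG. Letters run 5′ to 3′ on the plus strand of chr3:112332906-112333205 for CD200 and chr3:172039328-172039627 for FNDC3B. Whether the deposited promoter regions cover exactly these bases was not tested, since the builds differ.
CD200: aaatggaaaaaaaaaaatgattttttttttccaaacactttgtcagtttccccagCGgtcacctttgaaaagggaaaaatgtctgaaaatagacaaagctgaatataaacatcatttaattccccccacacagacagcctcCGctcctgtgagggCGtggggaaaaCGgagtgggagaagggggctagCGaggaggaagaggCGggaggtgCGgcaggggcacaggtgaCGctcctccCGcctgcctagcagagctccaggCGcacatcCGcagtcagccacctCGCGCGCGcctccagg
FNDC3B: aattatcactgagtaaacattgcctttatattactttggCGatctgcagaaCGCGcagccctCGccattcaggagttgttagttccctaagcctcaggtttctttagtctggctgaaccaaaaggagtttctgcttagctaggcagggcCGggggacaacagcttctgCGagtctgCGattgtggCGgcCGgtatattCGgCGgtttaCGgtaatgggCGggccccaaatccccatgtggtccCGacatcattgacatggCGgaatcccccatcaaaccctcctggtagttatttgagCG

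Motifs of 4 factor families were counted in the same windows on both strands. The ETS motif CCGGAAG was in 18.4% of windows of nearest genes with a gained promoter, 6.68% of those without and 14.2% of all promoters, and in 23.2% for genes with a gained promoter and no gained intergenic region. In the same order the RUNX core TGTGGT was in 9.42%, 9.55%, 10.9% and 9.49%, once in the FNDC3B window and not in that of CD200. The AP-1 motif TGANTCA was in 3.59%, 6.92%, 5.72% and 4.00%, and the cAMP response element TGACGTCA in 3.59%, 1.67%, 2.60% and 3.43%. None of the 4 motifs shares its full length with another, and a match is only a description of the letters. As for CpG, the promoters without a gain may include some with no tested region.

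Functional lists of nearest genes were read against all protein-coding genes off chromosome 7, of which 781 of 19118 (4.09%) had a gained intergenic region. The lists were written with earlier results of these data known, so their shares are not an independent comparison with that background. Immediate early genes, which respond to a stimulus without new protein synthesis, had 11 of 38 genes (28.9%), and 24 of the 38 had a gained promoter. The phosphatases DUSP6 (log2 fold 1.07, 45.7 and 18.8 reads) and DUSP1 (1.05, 26.7 and 10.3 reads) and the nuclear receptor NR4A2 (1.01) had the largest folds. ZFP36L1, an mRNA decay factor, had regions on both sides (0.97 and 0.70). Of the 11 genes, 10 also had a gained promoter. The median fold of the 12 regions was 0.79, below the 1.0 of all gained intergenic regions. With a log2 fold of at least 1 required, 3 of the 38 genes (7.89%) had a region, fewer than the 5 of 33 (15.2%) among progenitor surface molecules, and all protein-coding genes had 2.12%.

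Surface molecules of progenitors and leukaemic cells had 8 of 33 genes (24.2%), of which 2, IL1RAP and ITGA4, also had a gained promoter. Of the 33, 4 had a gained promoter (12.1%). CD38, an ectoenzyme lost on the most primitive cells, had regions 23.6 and 21.6 kb upstream with knockdown means of 19.8 and 39.9 reads and control means of 5.49 and 16.4 (1.31 and 1.05). CD44, the hyaluronan receptor, had a pair, 98.3 and 87.9 kb upstream (1.21 and 0.96), in a run of 3 with a site labelled MIR1343 (1.03). IL1RAP, a co-receptor for interleukin 1 raised on leukaemic stem cells, had 16.1 and 4.87 reads 9.28 kb upstream (1.19), and ITGA4, an integrin of marrow adhesion, 22.0 and 7.86 (1.08). CD34, the marker of progenitors, had regions 12.2 and 52.2 kb upstream with almost equal folds (0.98 and 0.98) and 30.3 and 39.1 reads in the knockdown against 12.6 and 16.8. IL7R (1.07), CD69 (0.97) and KIT completed the list.

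Haematopoietic transcription factors had 7 of 52 (13.5%) with 12 regions. IKZF2, an Ikaros family member, had 17.9 and 5.42 reads 35.1 kb downstream (1.21). HLF, a factor of stem cell identity, had regions 88.6 and 26.3 kb upstream (1.18 and 0.78). ID2, an inhibitor of helix-loop-helix factors, had 1.12 at 22.2 kb and 0.60 at 97.9 kb, the latter already open in the control with 55.9 reads. FLI1, an ETS factor, had 28.9 and 12.5 reads 8.11 kb upstream (0.98), and LMO2, a bridging factor of early blood complexes, 19.1 and 8.41 at 37.9 kb upstream (0.86). LMO2 was the only gene with such a region among 39 partners and targets of the fusion (2.56%, near the background), although 11 of those had a gained promoter.

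Among PRC2 subunits 3 of 14 had a region (21.4%), and all 3 also had a gained promoter, which 5 of the 14 had in all (35.7%). The 3 were PHF19 itself, 15.4 kb upstream with 17.6 and 5.90 reads (1.10, FDR 0.00904), LCORL (0.92), which encodes an accessory protein of the complex, and RBBP7 (0.84), a histone-binding subunit. With a log2 fold of at least 1 required, only PHF19 kept a region, 1 of 14 (7.14%), against 2.12% of all protein-coding genes. PRC1 had 3 of 25 (12.0%), KDM2B (0.93), which reads CpG islands, RYBP (0.91) and BCORL1 (0.71). HOX genes, textbook targets of Polycomb, had 1 of 28 (3.57%), HOXD11, with 7.68 and 1.83 reads (0.93, FDR 0.0489).

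Developmental transcription factors, another class held by Polycomb, had 11 of 100 (11.0%) with 13 regions, and 6 of the 100 had a gained promoter, none of them among the 11. EOMES, a T-box factor, had sites 48.6 and 83.1 kb downstream (1.53 and 1.18) with 16.7 and 12.8 reads against 3.25 and 3.13. PAX3, a neural crest factor, had 16.9 and 4.27 reads (1.35), HAND2 a pair (1.16 and 0.94) and NEUROD1 1 (1.14). Lymphoid genes had 5 of 43 (11.6%), EOMES again, CTLA4 (0.97), GZMB (0.97), PRDM1 (0.97) and NCAM1 (0.96). Of the 43, 3 had a gained promoter (6.98%), none of them among the 5. With so few gained promoters in both lists, nothing is read from the lack of overlap. Axon guidance and neural adhesion genes had 9 of 59 (15.3%), including SLIT2 (1.30), CNTN5 (1.25) and CDH2 (1.08). Of those 9, 2 also had a gained promoter, and 10 of the 59 (16.9%) had one.

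Ribosomal protein genes, a control list, had a gained promoter at 37 of 78 but a gained intergenic region at 1 (1.28%), RPL37A (1.18, 11.5 kb upstream). Chromatin modifiers had 29 of 57 promoters and 5 intergenic genes (8.77%), SATB1, the DNA demethylase TET2 with a pair of adjacent regions 84.1 and 84.9 kb upstream (0.89 and 0.84), and the remodellers CHD4 (0.83), CHD7 (0.78) and SMARCC1 (0.65). Cell cycle and apoptosis genes had 21 of 55 promoters and 5 intergenic genes (9.09%), all 5 with both, including MYCN (1.34 and 0.94) and BCL6, a repressor of differentiation, with 45.4 and 16.0 reads (1.24, FDR 0.000335). Epithelial genes, the other control, had 1 of 41 (2.44%), CLDN1 (1.56 and 1.15).

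Granulocyte and monocyte genes had 5 of 47 (10.6%), CD14, the endotoxin co-receptor, with 18.2 and 5.11 reads (1.26), the Toll-like receptors TLR2 (1.04) and TLR4 (0.9965), CXCR1 (0.94) and MMP8 (0.91). Cytokine, chemokine and NF-kappaB genes had 4 of 48 (8.33%), including the chemokines CCL20 (1.28), CXCL2 (1.16) and CXCL3 (0.94). Adhesion and migration genes had 5 of 42 (11.9%), with S1PR1, a receptor that guides exit from tissues, the largest (1.53, 17.0 and 3.22 reads). Wnt, Notch and TGF-beta genes had 5 of 62 (8.06%), including FZD5 (1.12), TGFBR2 (0.97) and CTNNB1 (0.86). Erythroid and megakaryocyte genes had 1 of 33 (3.03%), CA2 (1.25). The lists share members, were not matched on the intergenic space around a gene and carry no test.

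**Figure D4:**
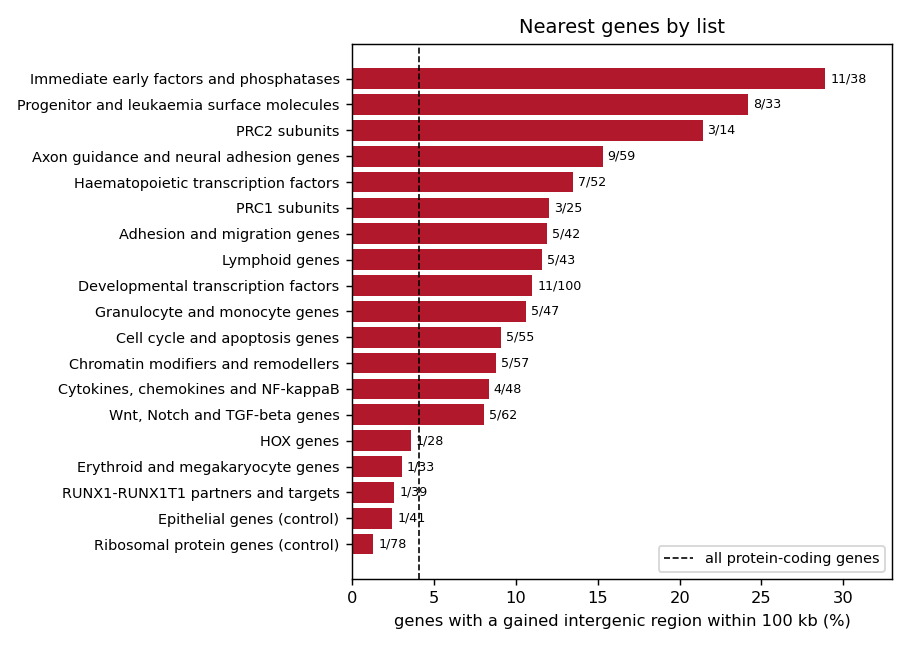
Share of genes of each list, chromosome 7 left out, that are the nearest gene of a gained intergenic region within 100 kb, with the number of genes beside each bar and the share of all protein-coding genes (4.09%) as the dashed line. Immediate early genes are at 28.9%, or 7.89% where a log2 fold of at least 1 is required, and ribosomal protein genes at 1.28%. The lists were written with earlier results of these data known.

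Lost regions were few, 200 of the 8815 listed, and 0.847% of protein-coding genes off chromosome 7 had one. The share was 3 of 781 (0.384%) among protein-coding nearest genes of the gained intergenic regions, and the difference was not tested. Of the 1103 regions, 5 had a nearest gene with a lost region, at FOXK2, LINC00910, PRDM11 and TMC3. FOXK2, a forkhead factor, gained 22.2 kb upstream (0.96, 53.3 and 24.97 reads) and lost at an annotated promoter (−1.005, 13.9 and 35.1 reads). That promoter belongs to another TSS of the gene than the one nearest to the gained region. PRDM11 gained 10.2 kb upstream (0.87) and lost 33.2 kb downstream (−1.45), each counted from its nearest TSS. TMC3 had a pair of gains, 1.30 and 0.93, and a loss 184.8 kb upstream (−1.10), and LINC00910 a gain (0.99) and a loss (−1.16).

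By chromosome the regions numbered 5.79 per 100 protein-coding genes over all chromosomes but 7. Chromosome 3 was highest with 143 regions (13.4 per 100), ahead of 4 (11.3), 5 (11.3), 21 (10.5) and 2 (9.41). Chromosomes 22 (0.887), 19 (0.896), 20 (1.12), 16 (1.41) and 17 (1.45) were lowest. As a share of all gained regions on the chromosome they made up 14.6% in all, 18.2% on chromosome 11, 18.0% on X and 5.42% on chromosome 19. Median folds were between 0.79 on chromosome 19 and 1.05 on chromosome 6. Chromosome 17 held 17 of the gained and 11 of the 47 lost intergenic regions. Copy number of the line and the number of tested regions per chromosome were not used here, so the part of either in these counts was not tested.

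**Figure D5:**
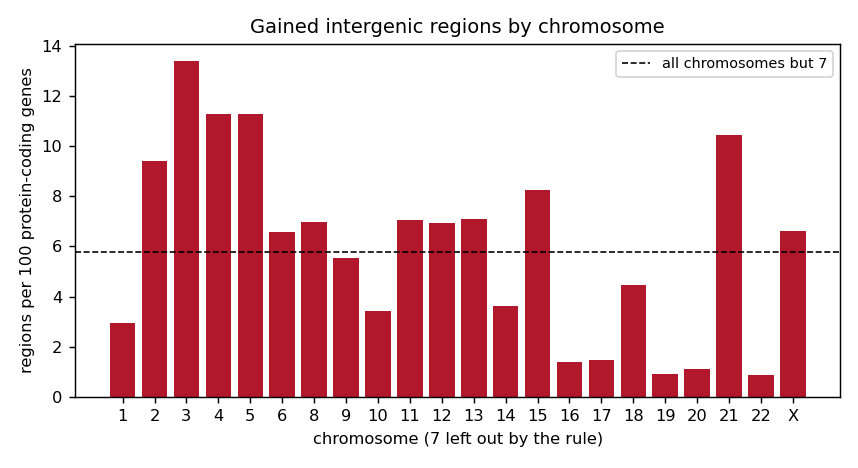
Gained intergenic regions within 100 kb of a TSS per 100 protein-coding genes on each chromosome, with the value over all chromosomes but 7 (5.79) as the dashed line. Chromosome 3 stands at 13.4 and chromosomes 19 and 22 below 1.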

How the data were processed

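ATAC-seq regions of 3 PHF19 knockdown and 4 control libraries were read from a pair of lists. Per the file headers, the authors deposited log2 mean normalised counts (all libraries and each group), a log2 fold, and a p-value with FDR for each region. MACS2 2.2.6, deepTools 1.5.12, Bowtie2 2.4.1 and Picard 2.2.4 appear, without roles, per the submitters' processing notes. Of normalisation, contrast tool and transposase offset the method is not given in the sources used here, and depth per library is unknown. The headers name the group columns KP and KC, which the labels do not define. They were read as knockdown and control, and the deposited mean over all libraries weighted KP by 0.429 (3 of 7 libraries). The notes name hg38, but only 0.137% of gene starts equal GRCh38, so coordinates are read as hg19. RefSeq GRCh38.p14 served for names (1100 of 1103 regions matched), gene types and sequences.

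Regions were counted in Python 3.11.15 (scipy 1.17.1, numpy 2.4.6, pandas 2.3.3) and plotted with matplotlib 3.10.9, and the counting was tested on simulated data. Shares have exact 95% intervals. No test over regions was made. Members and 19 gene lists were chosen with earlier results of these data known. Regions named by rule were the 12 largest folds and the 5 highest and 3 lowest means, all at named protein-coding genes. The rule also named the genes with most regions (at most 10) and up to 4 genes per list by fold. Further ones were the 3 nearest and 3 farthest from a TSS with the 2 just outside, and the 3 smallest folds. Genes with a lost region, and the 5 genes with a gained promoter and most regions, were also named by rule. The microRNA and other noncoding genes, the genes with 3 regions and list genes past the fourth were named after their values were seen. Chromosome 7 genes left the list denominators, 2 symbols matched no protein-coding gene, and 14 of the lists share genes. Alternatives were thresholds of fold, FDR, distance and reads, and chromosome 7.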

Additional observations from a re-analysis of the deposited data

How the results depend on the processing

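Alternatives chosen with the design gave, with a log2 fold of at least 1, an FDR of at most 0.01 and a mean of at least 10 reads, in that order, 549, 389 and 616 regions, and median log2 folds of 1.14, 1.21 and 0.95. The share with a neighbour within 25 kb was 11.3, 13.1 and 15.9%, and genes with at least 3 regions numbered 4, 5 and 8. At a log2 fold of at least 1 and an FDR of at most 0.01, the nearest gene had a gained promoter (held to the same limit) for 15.5 and 21.9%, and 38 and 35 list genes had a region, against 82. The median distance was 33.1 kb at a log2 fold of at least 1 and 27.8 kb at 10 reads, and the protein-coding share 81.4% at a log2 fold of at least 1. Limits of 50 and 200 kb gave median distances of 20.2 and 45.6 kb and 8 and 44 genes with at least 3 regions, and 16.8% had a neighbour at 50 kb. With chromosome 7, 33.6% had a gained promoter. Of the alternatives chosen after seeing the data, gaps of 10 and 100 kb gave neighbours to 10.9 and 33.2%, and the difference of group means gave a median of 1.52. Of these 28 values, 25 come from fewer or more regions, and the last 3 from another gap limit or another measure on the same regions. The other 36 stayed within the interval of the reported share or median, or within 1.5 times the reported count. Beside these, at a log2 fold of at least 1 the number of genes with a region moved by over 1.5 times in 13 of 19 gene lists, among them immediate early genes (11 to 3), lymphoid genes (5 to 1), chromatin modifiers (5 to 1) and PRC1 subunits (3 to 0). Upstream shares ran from 64.2 to 69.7%. No paired analysis was possible because the lists hold group means and no value per library, so leaving out single replicates was not run either. Regions with a mean under 10 reads (44.2%) have the least certain folds.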
